A study of Mus musculus with 16 samples.

Results

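The genes described here are 58 genes that act in mitosis or in the G2/M step before it, chosen by their known roles and found by gene symbol in the deposited count table. All 58 of 58 were present among its 25640 genes, and all 58 passed the low-count filter, as did 13708 genes in all. They fall into 11 roles. There are 7 cyclins, Cdk1 and its phosphatases, and 4 entry and spindle kinase genes, counting the kinase activator Tpx2. Another 3 are transcription factors and related kinases, and 9 are chromosome structure genes. Then come 5 kinetochore genes, 3 passenger complex genes and 4 checkpoint genes. The others are 7 spindle microtubule genes, 10 kinesins, 3 anaphase genes and 3 cytokinesis genes. RNA was sequenced from splenic B cells of C57BL/6 mice aged 10 weeks, sorted by flow cytometry as follicular B cells (FoB) or germinal center B cells (GCB). Every mouse carried floxed Rock2 alleles, so the group called WT is Rock2 flox/flox. The conditional knockout (cKO) is Rock2 flox/flox with a Cre transgene named CD23-Cre. The labels do not say whether the WT mice carried that transgene. CD23 is a surface receptor of mature follicular B cells, and Rock2 encodes a kinase that acts downstream of the small GTPase RhoA on the actomyosin skeleton. All mice had been immunized with 100 µg of NP-CGG, a hapten on a carrier protein, in alum 7 days earlier. The 2 genotypes and 2 cell types give 4 groups of 3 libraries numbered 1 to 3, and values are listed in that order throughout.

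Mitosis is driven by Cdk1 bound to B-type cyclins, which polo-like and Aurora kinases and the Cdc25 phosphatases help to switch on. Kinesins and microtubule-binding proteins build the spindle, condensin and topoisomerase II fold the chromosomes, kinetochore proteins attach them, and the spindle checkpoint holds back Cdc20 and its ubiquitin ligase until attachment is complete. Transcripts of most of these genes build up in the G2 phase of the cell cycle, under control of MuvB complexes and FOXM1. Germinal center B cells cycle fast after antigen encounter, whereas most follicular B cells rest, so transcripts of this set mark cycling cells there.

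The promoters of 4 members are shown because 2 short motifs recur in them. TTTGAA is the core of the cell cycle homology region and reads TTCAAA on the other strand. CCAAT is the core that the factor NF-Y is known to bind and reads ATTGG on the other strand. The sequences are RefSeq's for build GRCm38.p6, the 250 bases before the start used in its promoter table, 5′ to 3′ on the gene's own strand, with both motifs in capitals on either strand. They lie at chr7:122159185-122159434, plus strand (Plk1), chr10:69352913-69353162, minus strand (Cdk1), chr4:118437344-118437593, minus strand (Cdc20) and chr19:37376132-37376381, plus strand (Kif11).
Plk1: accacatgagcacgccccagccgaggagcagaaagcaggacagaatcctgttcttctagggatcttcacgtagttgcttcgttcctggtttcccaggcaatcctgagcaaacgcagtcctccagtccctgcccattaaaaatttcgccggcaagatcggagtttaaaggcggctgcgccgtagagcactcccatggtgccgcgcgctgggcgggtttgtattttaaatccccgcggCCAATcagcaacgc
Cdk1: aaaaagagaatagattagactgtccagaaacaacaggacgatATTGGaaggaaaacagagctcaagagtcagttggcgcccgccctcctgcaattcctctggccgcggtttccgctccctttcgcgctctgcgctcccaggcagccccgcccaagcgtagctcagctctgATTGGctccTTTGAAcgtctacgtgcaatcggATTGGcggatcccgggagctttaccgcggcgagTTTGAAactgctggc
Cdc20: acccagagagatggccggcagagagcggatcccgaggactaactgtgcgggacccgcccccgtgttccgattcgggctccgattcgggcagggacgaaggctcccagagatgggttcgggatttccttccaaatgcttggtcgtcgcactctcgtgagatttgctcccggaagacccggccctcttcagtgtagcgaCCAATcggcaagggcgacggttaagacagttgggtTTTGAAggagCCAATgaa
Kif11: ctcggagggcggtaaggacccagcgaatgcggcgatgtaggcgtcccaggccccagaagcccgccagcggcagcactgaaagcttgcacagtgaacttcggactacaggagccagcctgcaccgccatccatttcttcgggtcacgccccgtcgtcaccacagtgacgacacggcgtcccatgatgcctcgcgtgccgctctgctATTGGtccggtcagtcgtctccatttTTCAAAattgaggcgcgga
In these 4 the start is also the first base of the gene as listed, whereas the starts used for Mki67 and Aurka lie inside the listed span of the gene, and their windows are not printed. The Plk1 promoter carries CCAAT in the printed stretch, and its TTTGAA lies in the 50 bases after the start, which are not printed. A promoter window of 250 bases before to 50 bases after the start was listed for 47 of the 58 members and for 27025 genes in all. For 22 of the 47 the start used is the first base of the listed span, and for the other 25 it is another base. TTTGAA on either strand was found in 36 of the 47 members (76.6%), against 20.2% of all genes with a window. Within 50 bases of the start it was found in 31 of the 47 (66.0%), against 5.72% of all genes. CCAAT was found in 36 of 47 members (76.6%) and in 41.1% of all genes, and at least 2 copies in 23 members (48.9%) and 13.3% of all genes. Both motifs were present in 31 members (66.0%) and in 7.97% of all genes. Ect2 and Prc1 were listed with more than 1 window, and the motifs shared a base in 1 of the members' 49 windows. These are letter matches in RefSeq sequence, and binding was not measured.

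The libraries held 23349512 to 26967943 counts, and the 58 genes took 0.0944% to 0.240% of them in FoB and 1.73% to 2.06% in GCB. The sort labels matched their defining markers: all 14 germinal center genes on a marker list were higher in GCB than in FoB in WT (adjusted p under 0.05, edgeR) and 12 of 14 naive follicular genes were lower. Rock2 itself stood at 198, 154 and 145 CPM in WT GCB and 119, 131 and 92.6 in cKO GCB, and at 151, 129 and 132 in WT FoB and 123, 87.4 and 96.5 in cKO FoB. Genotypes did not overlap in either cell type, but neither difference passed the test (adjusted p = 0.563 and 1.00, edgeR). Reads from exons outside the floxed part count in both genotypes, and their part in the Rock2 level of cKO was not tested. No label says that the libraries of a group came from separate mice, so p-values measure the spread between these libraries. Libraries with the same number deviated together in all 4 groups. WT FoB 1 stood apart from the other FoB libraries in the mitotic genes, and cKO GCB 1 was the lowest GCB library in their summed level, so results that rest on either are given with and without it.

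The 58 mitotic genes were all far higher in germinal center than in follicular B cells, in both genotypes. Their read counts relative to the library total, scaled by TMM factors and written as CPM, summed to 2232, 1084 and 1118 in WT FoB, 1598, 1020.4 and 1187 in cKO FoB, 20492, 19784 and 17671 in WT GCB, and 16263, 18618 and 17285 in cKO GCB. No FoB library came near a GCB library. In such bulk samples a smaller share of dividing cells and less RNA per cell cannot be told apart. In WT, 58 of 58 members were called higher in GCB (edgeR quasi-likelihood test, adjusted p under 0.05), beside 25.6% of all 13708 genes tested. In cKO the count was again 58 of 58, beside 24.8% of all genes. No member's libraries overlapped between the cell types, while 29.5% of all genes in WT and 28.3% in cKO were higher without overlap. The median log2 fold change of the members was 4.03 in WT (16.4-fold), from 1.82 to 4.98, and 4.15 in cKO (17.7-fold), from 1.80 to 4.99. Over all genes tested the median was -0.01 in WT and -0.02 in cKO. DESeq2 and the fit with the library number as a block also called 58 of 58 in each genotype, beside 26.6% and 35.2% of all genes in WT and 25.5% and 34.7% in cKO. The members' adjusted p ran from 3.38e-07 to 0.000224 in WT.

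**Figure D1:**
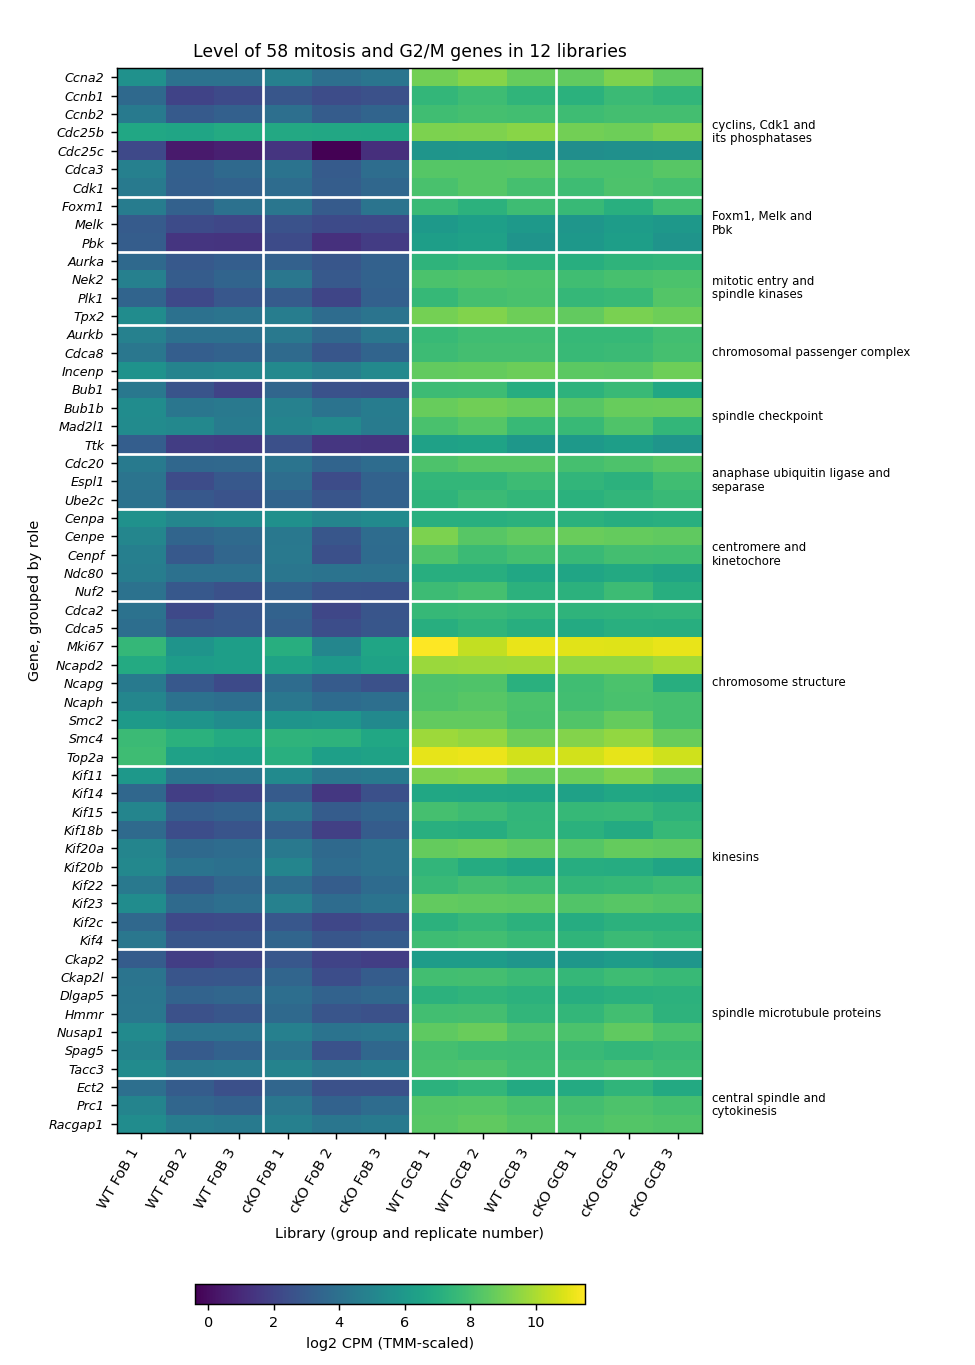
Level of each of the 58 members (rows, grouped by role) in each of the 12 libraries (columns), as TMM-scaled log2 CPM on the color scale. The 6 GCB columns are brighter than the 6 FoB columns in every row, and among the FoB columns WT FoB 1 is the brightest for 57 of the 58 members.

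The switch into mitosis was among the steepest. Plk1, the polo-like kinase that promotes Cdk1 activation and spindle assembly (chr7:122159435-122169884), stood at 10.9, 4.63 and 7.11 CPM in WT FoB, 8.20, 4.20 and 9.44 in cKO FoB, 188, 254 and 273 in WT GCB and 184, 198 and 316 in cKO GCB. Its GCB libraries were all above 180 CPM and its FoB libraries all under 11 CPM, and its log2 fold change in WT was 4.98 ± 0.40 (SE), 31.5-fold, the largest of the 58 (adjusted p = 1.80e-06). Ccnb1, the cyclin B1 partner of Cdk1 (chr13:100778739-100786486), stood at 12.5, 3.98 and 4.88 CPM in WT FoB, 6.97, 5.09 and 5.86 in cKO FoB, 178, 224 and 165 in WT GCB and 147, 211 and 172 in cKO GCB. WT FoB 1 was its only FoB library above 7 CPM, and its log2 fold change in WT was 4.72 ± 0.40, second to Plk1 (adjusted p = 2.31e-06). Cdk1, the kinase that drives mitotic entry (chr10:69335146-69352912), stood at 22.6, 9.21 and 10.1 CPM in WT FoB, 13.9, 8.70 and 11.8 in cKO FoB, 271, 333 and 249.9 in WT GCB and 220.1, 289 and 251 in cKO GCB. Its log2 fold change in WT was 4.34 ± 0.34 (adjusted p = 1.62e-06), with WT FoB 1 again the highest of the FoB libraries. Ccna2, cyclin A2, which acts from S phase into early mitosis, stood at 49.7, 17.0 and 16.9 CPM in WT FoB, 27.6, 15.5 and 18.4 in cKO FoB, 496, 653 and 419.9 in WT GCB and 398, 584 and 386 in cKO GCB. It differed by 4.23 ± 0.44 on the log2 scale in WT, and library 2 was the highest GCB library in both genotypes. The 7 genes of this role had a median log2 fold change of 4.32 in WT. Ccnb2 (4.18), Cdca3 (4.32, known in Xenopus to help degrade the Cdk1 inhibitor Wee1) and Cdc25c (4.38, a phosphatase that activates Cdk1) lay close to it. Cdc25b, another phosphatase that activates Cdk1, was the exception at 2.51 ± 0.14.

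Cdc25b (chr2:131186436-131198511) stood at 104, 98.1 and 116 CPM in WT FoB, 109.7, 107 and 104 in cKO FoB, 569, 577 and 667 in WT GCB and 496, 475 and 592 in cKO GCB. Its 6 FoB libraries lay within a narrow band with no high library, so that its difference had the smallest standard error of the 58 (0.140) and an adjusted p of 3.38e-07 in WT. In WT FoB 2 and 3 it stood at 17.7% of its WT GCB level, against a median of 3.71% and 3.98% over the 58 members in those libraries.

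Of the entry and spindle kinases, Aurka, the Aurora A kinase of centrosomes and spindle poles, stood at 12.8, 7.65 and 9.01 CPM in WT FoB, 9.74, 6.81 and 9.80 in cKO FoB, 161, 185 and 156 in WT GCB and 135, 161 and 175 in cKO GCB. The FoB libraries of Aurka spread less than those of most members, and its log2 fold change in WT was 4.09 ± 0.23 (adjusted p = 3.38e-07). Tpx2, which activates Aurora A on the spindle (4.39 ± 0.37), and Nek2, a kinase that separates centrosomes (4.19 ± 0.46), differed by similar amounts in WT. The 4 genes of the kinase role, with the activator Tpx2 counted among them, had a median of 4.29. Foxm1, the transcription factor that activates many G2/M genes, stood at 23.9, 9.86 and 16.6 CPM in WT FoB, 19.2, 8.03 and 18.1 in cKO FoB, 200.2, 154 and 225 in WT GCB and 194, 137 and 232 in cKO GCB. All its GCB libraries exceeded all its FoB libraries, with a log2 fold change of 3.52 ± 0.39 in WT, below the median of the 58. Melk (3.57) and Pbk (3.93), both protein kinases abundant in dividing cells, completed this role with a median of 3.57. Foxm1 overlaps another gene locus, and its counts are uncertain to that extent, as are those of Kif14 and Ncapd2.

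**Figure D2:**
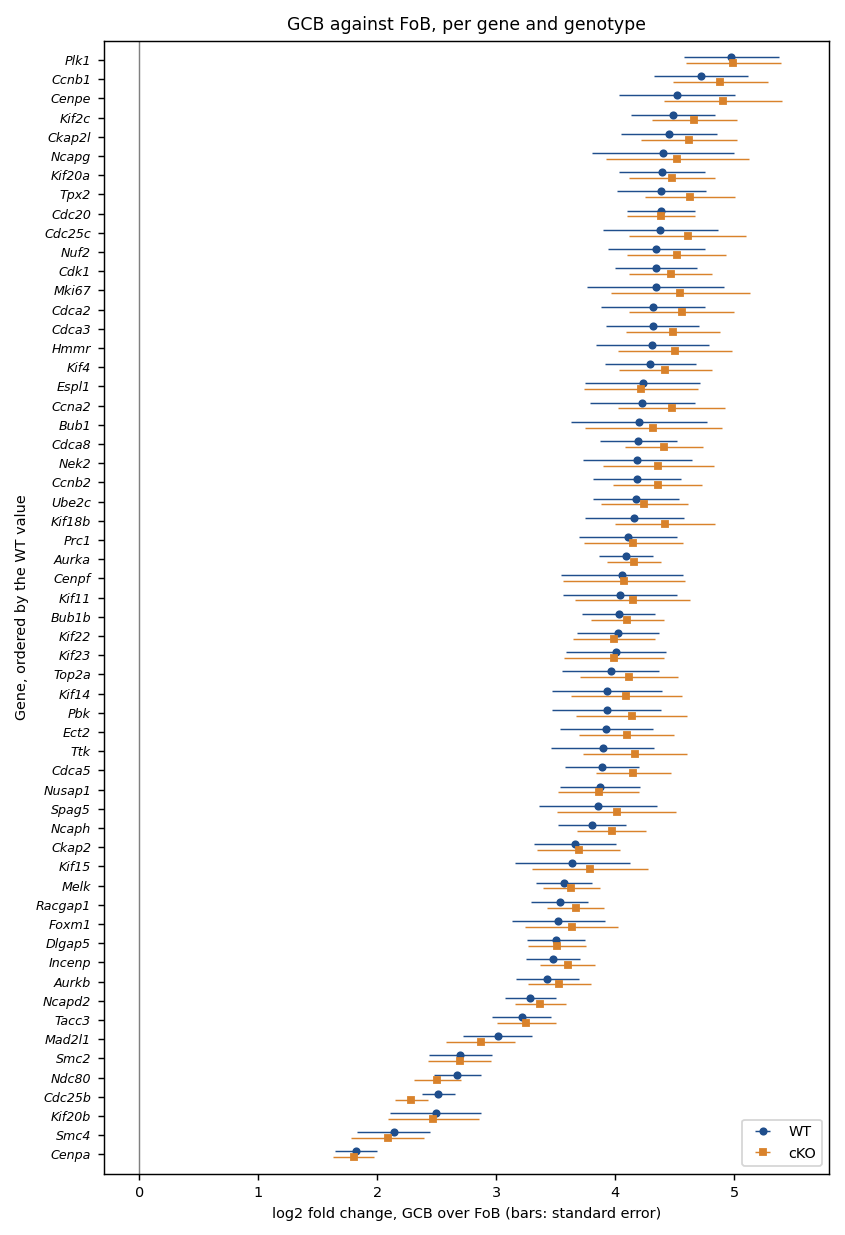
Log2 fold change of GCB over FoB for each of the 58 members, ordered by the WT value, in WT (circles) and in cKO (squares), with bars of 1 standard error. All points and bars lie above 0, from 1.82 (Cenpa) to 4.98 (Plk1) in WT.

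Chromosome structure genes spread widely. Mki67, the coat protein of mitotic chromosomes known as the proliferation marker Ki-67 (chr7:135689784-135716450), stood at 186, 53.4 and 77.2 CPM in WT FoB, 133, 33.1 and 95.5 in cKO FoB, 2889, 1338 and 2179 in WT GCB and 2010.2, 1920.5 and 2173 in cKO GCB. WT GCB 2 was low and WT GCB 1 high among the GCB libraries, and the log2 fold change in WT was 4.34 ± 0.58 (adjusted p = 7.26e-05). Top2a, the topoisomerase that untangles sister chromatids, stood at 224, 84.7 and 80.0 CPM in WT FoB, 139, 79.8 and 89.0 in cKO FoB, 2133, 2286 and 1634 in WT GCB and 1619, 2144 and 1576 in cKO GCB. Its log2 fold change in WT was 3.96 ± 0.41, and it hosts a noncoding RNA whose reads cannot be told apart from its own. Smc4, a core subunit of condensin (chr3:69004738-69034623), stood at 211, 145 and 118 CPM in WT FoB, 162, 155 and 103 in cKO FoB, 869, 749 and 474 in WT GCB and 617, 748 and 420.4 in cKO GCB. Library 3 was the lowest GCB library of Smc4 in both genotypes, all FoB libraries were above 100 CPM, and the log2 fold change in WT was only 2.14 ± 0.31 (adjusted p = 1.33e-04). Smc2, the partner of Smc4 in both condensins, likewise differed by 2.70 ± 0.27. The other condensin subunits among the 58 differed by more: 3.29 for Ncapd2, 3.80 for Ncaph and 4.40 for Ncapg on the log2 scale in WT. Cdca5 (3.89), known as sororin, which holds sister chromatids together, was at the role's median of 3.89. Cdca2 (4.32), which brings a phosphatase to chromatin, lay above it.

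Centromere genes showed the same split. Cenpa, the histone H3 variant that marks centromeres (chr5:30666877-30674837), stood at 49.3, 33.2 and 38.0 CPM in WT FoB, 47.1, 32.6 and 38.8 in cKO FoB, 136, 138 and 153 in WT GCB and 146, 129 and 137 in cKO GCB. Its groups did not overlap, but its log2 fold change of 1.82 ± 0.18 in WT (3.54-fold, adjusted p = 6.25e-06) was the smallest of the 58. Cenpe, the kinetochore motor that moves chromosomes to the spindle equator (chr3:135212563-135273540), stood at 33.0, 11.2 and 13.1 CPM in WT FoB, 20.4, 6.77 and 14.1 in cKO FoB, 576, 339 and 403 in WT GCB and 437, 417 and 386 in cKO GCB. WT GCB 1 was its highest library, and its log2 fold change of 4.52 ± 0.49 in WT was the third largest (adjusted p = 1.38e-05). Nuf2 and Ndc80 form a dimer in the microtubule-binding complex of the kinetochore, yet their log2 fold changes in WT were 4.35 ± 0.41 and 2.67 ± 0.20. Ndc80 hosts a noncoding RNA, which makes its counts uncertain. Aurkb, the catalytic subunit of the chromosomal passenger complex that corrects wrong attachments, stood at 28.0, 16.5 and 16.2 CPM in WT FoB, 21.0, 12.3 and 19.7 in cKO FoB, 196, 231 and 228 in WT GCB and 188, 187 and 238 in cKO GCB. It differed by 3.43 ± 0.26 in WT, and its partners Incenp and Cdca8 by 3.48 ± 0.23 and 4.19 ± 0.32.

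The spindle checkpoint gene Bub1, a kinase that recruits checkpoint proteins to kinetochores, stood at 20.5, 6.40 and 3.97 CPM in WT FoB, 11.4, 6.14 and 5.61 in cKO FoB, 218, 226 and 128 in WT GCB and 157, 199.7 and 107 in cKO GCB. WT FoB 1 stood far above the other FoB libraries for Bub1, library 3 was the lowest GCB library in both genotypes, and the log2 fold change in WT was 4.20 ± 0.57 (adjusted p = 8.59e-05). Bub1b (4.03) and Ttk (3.89) lay near it, while Mad2l1, which blocks Cdc20 while kinetochores are unattached, differed by 3.01 ± 0.29. Cdc20, the activator that targets the ubiquitin ligase to cyclin B and securin, stood at 21.8, 11.7 and 12.2 CPM in WT FoB, 17.8, 10.8 and 14.1 in cKO FoB, 287, 334 and 335 in WT GCB and 252, 287 and 355 in cKO GCB. All its FoB libraries were under 22 CPM and all its GCB libraries above 250 CPM, with a log2 fold change of 4.38 ± 0.29 in WT (adjusted p = 5.08e-07). Ube2c, the conjugating enzyme of that ligase (4.17 ± 0.36), and Espl1, the separase that cuts cohesin (4.23 ± 0.48), differed by like amounts.

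Among the kinesins, Kif11, the motor that pushes spindle poles apart, stood at 62.1, 18.7 and 19.1 CPM in WT FoB, 39.0, 19.7 and 22.0 in cKO FoB, 592, 627 and 427 in WT GCB and 463, 588 and 379.9 in cKO GCB. Its WT FoB 1 value was above 60 CPM while WT FoB 2 and 3 were under 20, and its log2 fold change in WT was 4.04 ± 0.48 (adjusted p = 3.04e-05). The 10 kinesins had a median of 4.03 and ran up to 4.48 for Kif2c, which takes microtubules apart at kinetochores. Kif20b, a kinesin of late cytokinesis (chr19:34922335-34975750), had the smallest difference among them and stood at 35.6, 17.5 and 16.1 CPM in WT FoB, 32.1, 13.9 and 16.6 in cKO FoB, 171, 121 and 97.2 in WT GCB and 128, 127 and 92.1 in cKO GCB. WT GCB 1 was its highest library, its log2 fold change in WT was 2.49 ± 0.38 (adjusted p = 2.24e-04), and it too hosts a noncoding RNA. The 7 spindle microtubule genes had a median of 3.86 in WT, from 3.21 for Tacc3 to 4.45 for Ckap2l. Cytokinesis genes differed by 4.11 ± 0.41 for Prc1, which bundles the central spindle, and 3.53 ± 0.24 for Racgap1, a subunit of centralspindlin. Ect2, the exchange factor that activates RhoA at the cleavage furrow, differed by 3.93 ± 0.39. Nusap1, Smc4 and Tpx2 also host noncoding RNAs, which brings the members with such a locus to 6.

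Neighbouring gene lists differed less or unequally between the cell types. Of 55 other mitotic genes, 54 were called higher in WT GCB, with a median log2 fold change of 3.41. The exception was Pttg1, securin, at -0.06 ± 0.14 (adjusted p = 0.730). Of 40 S phase genes, 38 were called higher, with a median of 2.62. The core subunits of the anaphase ubiquitin ligase were called higher in 11 of 15, with a median of 0.71, and cohesin and its regulators in 8 of 12, with a median of 0.84. Esco2, which acetylates cohesin in S phase, stood out there at 4.70 ± 0.63. On a list of 14 DREAM, MuvB and related genes, which also holds the pocket protein gene Rb1, 9 were called higher and 2 lower, with a median of 0.80. The B-Myb gene Mybl2, which joins MuvB to activate G2/M genes and is also among the other mitotic genes, rose by 3.52 ± 0.40, and the A-Myb gene Mybl1, also on the germinal center list, by 6.45 ± 0.47. The pocket protein genes Rb1 (-1.30 ± 0.26) and Rbl2 (-0.60 ± 0.16), repressors of cell cycle genes in resting cells, fell, while the third pocket protein gene Rbl1 rose by 1.71 ± 0.20. Library values of Rb1 were 124, 107 and 91.6 CPM in WT FoB and 49.8, 50.7 and 30.8 in WT GCB, without overlap.

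Within follicular B cells, WT FoB 1 carried more mitotic transcripts than any other FoB library. It was the highest of the 6 FoB libraries for 57 of the 58 members, the exception being Cdc25b. As a percent of the mean WT GCB level, the median over members was 10.3% in WT FoB 1, 3.71% in WT FoB 2, 3.98% in WT FoB 3, 6.78% in cKO FoB 1, 3.54% in cKO FoB 2 and 4.70% in cKO FoB 3. Library 1 was thus the highest in both genotypes. The ratio of WT FoB 1 to the mean of WT FoB 2 and 3 had a median of 2.43 over the members, from 0.978 for Cdc25b to 3.96 for Bub1. Ncapg (3.73), Kif15 (3.39) and Spag5 (3.30) followed Bub1. Mad2l1 (1.36), Cenpa (1.39) and Smc2 (1.45) were the lowest after Cdc25b. For cKO FoB 1 the ratio to the mean of WT FoB 2 and 3 had a median of 1.58.

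**Figure D3:**
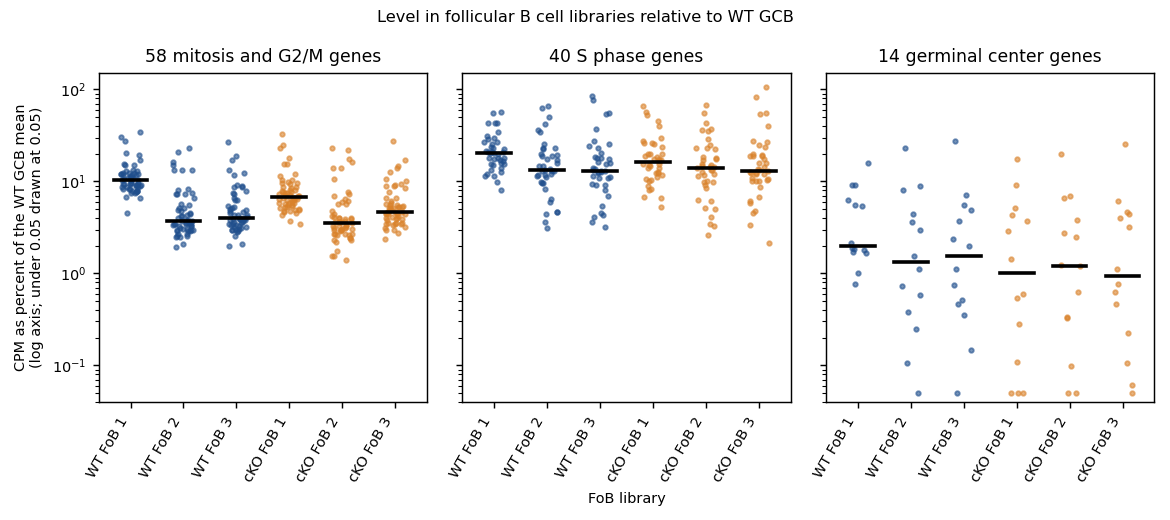
Level of each gene in each of the 6 FoB libraries as a percent of its mean in WT GCB (log axis; 1 point per gene, bar at the median; values under 0.05% are drawn at 0.05%), for the 58 members, 40 S phase genes and 14 germinal center genes. The members' median is 10.3% in WT FoB 1 and 3.54% to 6.78% in the other 5 libraries. The germinal center genes have a median of 2.01% in WT FoB 1 and 0.941% to 1.54% in the other 5.

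Other lists in the same library moved with the members to a smaller degree. The S phase genes had a median ratio of WT FoB 1 to WT FoB 2 and 3 of 1.37 and stood at 20.5% of WT GCB in WT FoB 1, against 13.4% and 13.0% in WT FoB 2 and 3. The germinal center list was highest in WT FoB 1 for 12 of 14 genes, with a median ratio of 1.81, a median of 2.01% of WT GCB, and a summed level of 204, 174 and 196 CPM in WT FoB and 148, 147 and 183 in cKO FoB. Gcsam, a signalling adaptor of germinal center B cells, stood at 5.32, 0.562 and 0.786 CPM in WT FoB and 0.0342, 0.210 and 0.326 in cKO FoB. The sphingosine receptor gene S1pr2 stood at 6.84, 2.33 and 3.06 CPM in WT FoB and 1.13, 1.35 and 1.88 in cKO FoB, and Gcnt3 was at 0 in every FoB library except WT FoB 1. Bcl6, the master regulator of the germinal center, was not highest there, at 66.5, 95.3 and 113 CPM in WT FoB. The core subunits of the anaphase ubiquitin ligase had a median ratio of 1.01. The part of germinal center cells in the WT FoB 1 values was not tested. Leaving out WT FoB 1 raised the members' median log2 fold change of GCB over FoB in WT from 4.03 to 4.69, with 58 of 58 still called.

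In germinal center B cells no mitotic gene was called changed between cKO and WT. Of the 58 members, 0 were called in either direction by edgeR, 0 had an unadjusted p under 0.05, and DESeq2 also gave 0 and 0. Beside them, edgeR called 0.102% of all genes tested higher and 0% lower, and DESeq2 0.912% higher and 0.0365% lower. With the replicate number as a block, 1.93% of all genes were called higher and 0.212% lower, again with 0 members called and 1 with an unadjusted p under 0.05. The members' log2 differences were nonetheless small and mostly of one sign: 57 of 58 were below 0, against 50.6% of all genes, with a median of -0.17 (0.891-fold) and a range from -0.31 to 0.03. Co-regulated transcripts in the same 6 libraries are not independent of each other, so the shared sign is a description. The 95% intervals of single members in the unblocked edgeR fit reached from -1.39 at the lowest to 1.03 at the highest. Changes of single genes inside their intervals were not excluded by that fit. The authors' deposited table gave log2 fold changes below 0 for 56 of 58 members in GCB, with a median of -0.15 and false discovery rates from 0.725 to 1.00.

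Cdc25b had the smallest p of the 58 in GCB. It stood at 569, 577 and 667 CPM in WT and 496, 475 and 592 in cKO, so that cKO GCB 3 overlapped the WT values. The log2 difference was -0.21 ± 0.13 (95% interval -0.50 to 0.07, adjusted p = 1.00, edgeR), and the blocked fit gave an adjusted p of 0.288. Ndc80 stood at 133, 133 and 102 CPM in WT and 95.5, 115 and 92.3 in cKO. Its groups overlapped through WT GCB 3, and it differed by -0.28 ± 0.19 (interval -0.68 to 0.12). Racgap1 (chr15:99620496-99651656) stood at 339, 381 and 316 CPM in WT and 281, 314 and 300.4 in cKO. All its cKO values were under all its WT values, and the difference was -0.21 ± 0.21 (interval -0.68 to 0.26). Altogether 6 members were lower in cKO without overlap (Cdc25c, Cdca2, Kif23, Ncaph, Racgap1 and Spag5) and 0 higher, beside 2.95% and 5.42% of all genes. Kif23 is the kinesin partner of Racgap1 in centralspindlin, and stood at 393, 372 and 359 CPM in WT and 304, 342 and 303 in cKO, a difference of -0.24 ± 0.37. The difference was -0.07 ± 0.50 for Mki67 (interval -1.17 to 1.03), -0.04 ± 0.34 for Plk1 (interval -0.77 to 0.70) and -0.04 ± 0.35 for Foxm1 (interval -0.81 to 0.73).

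**Figure D4:**
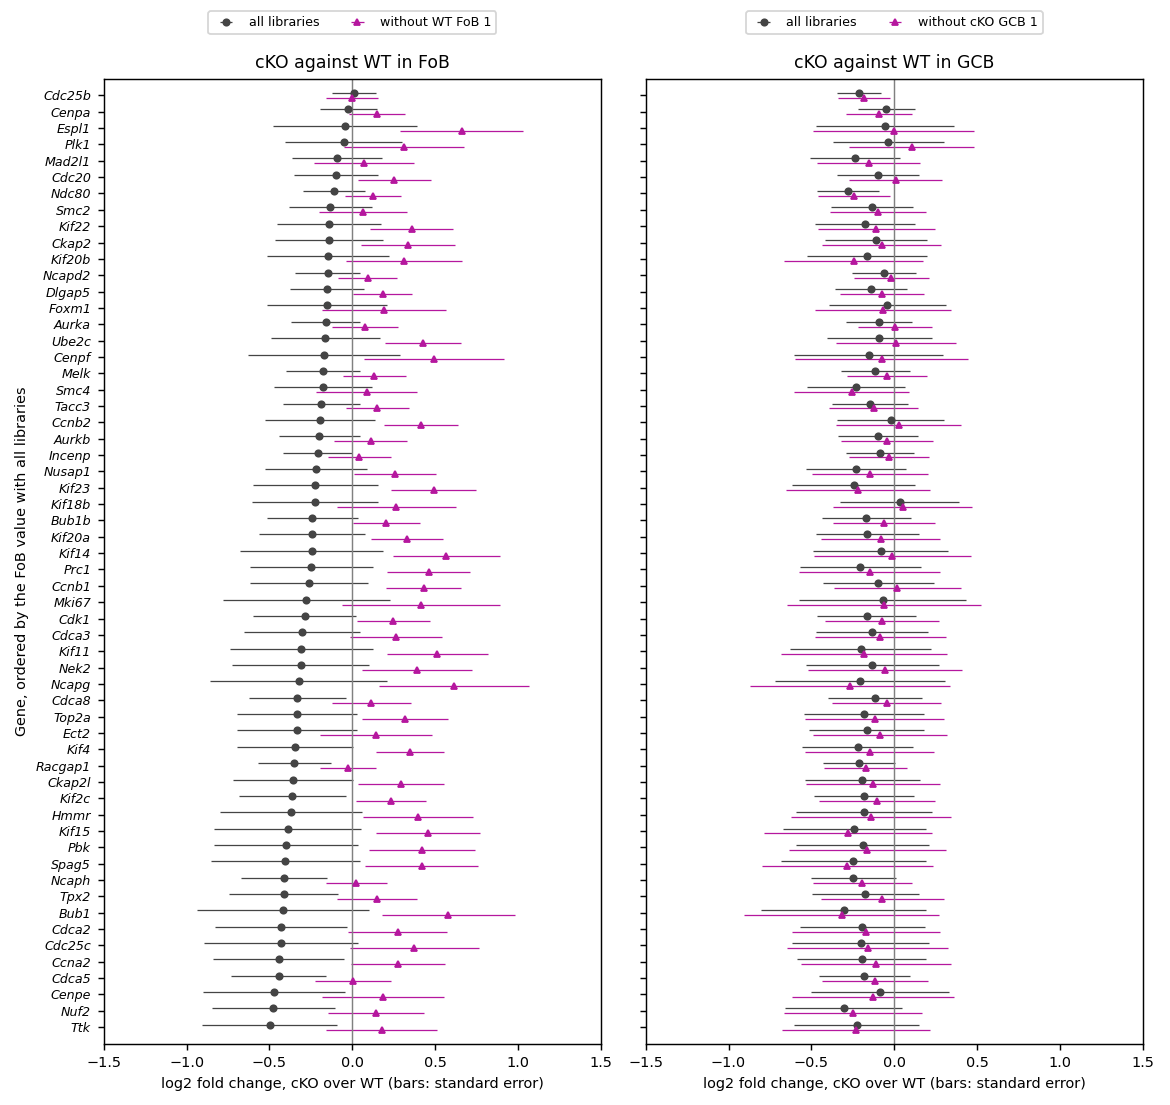
Log2 fold change of cKO over WT for each of the 58 members in FoB (left) and GCB (right), with all libraries (circles) and without WT FoB 1 or cKO GCB 1 (triangles), with bars of 1 standard error. In FoB the median moves from -0.25 to 0.26 when WT FoB 1 is left out, and in GCB from -0.17 to -0.10 when cKO GCB 1 is left out.

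The small shift in GCB differed between library numbers. The median log2 difference of cKO and WT over the members was -0.32 within number 1, -0.17 within number 2 and -0.04 within number 3, with 56, 51 and 37 of 58 members below 0. A total of 29 members were below 0 within all 3 numbers, beside 19.3% of all genes, and 0 were above 0 in all 3. cKO GCB 1 had the lowest summed level, and without it the members' median was -0.10, with 51 below 0 and 7 above. In the blocked fit without cKO GCB 1 and WT FoB 1 the median was -0.02, with 36 below 0 and 22 above. Other lists moved in the same libraries. The germinal center list summed to 4274, 4348 and 4501 CPM in WT GCB and 3355, 3577 and 4061 in cKO GCB. Of its 14 genes 13 were below 0 and 0 were called. The naive follicular list summed to 1087, 1161 and 1214 in WT GCB and 1709, 1408 and 1197 in cKO GCB, with 13 of 14 above 0, a median log2 difference of 0.74, 0 called by the unblocked test and 5 called higher with the block. Ccr6, a chemokine receptor of naive B cells, stood at 11.7, 18.4 and 16.6 CPM in WT GCB and 63.4, 49.0 and 28.5 in cKO GCB, highest in cKO GCB 1. The plasma cell list was above 0 for 8 of 10 genes, with a median of 0.63, 0 called without the block and 4 called higher with it (Creld2, Fkbp11, Irf4 and Prdm1), and it summed to 1636, 2233 and 1529 CPM in WT GCB and 1531, 2277 and 1642 in cKO GCB. Irf4, a transcription factor that rises on the way to plasma cells, stood at 42.6, 54.2 and 37.2 CPM in WT GCB and 97.8, 93.6 and 59.4 in cKO GCB, without overlap. The T cell list was above 0 for 13 of 14 genes, with a median of 1.13 (2.19-fold), 0 called without the block and 2 called higher with it (Tcf7 and Cd28). It summed to 67.4, 83.0 and 80.9 CPM in WT GCB and 91.4, 89.1 and 73.3 in cKO GCB, most of it from Lck, which stood at 57.5, 72.3 and 72.9 in WT GCB and 67.4, 60.2 and 60.6 in cKO GCB. Tcf7, a transcription factor of T cells, stood at 3.06, 2.63 and 2.53 CPM in WT GCB and 8.23, 8.45 and 4.05 in cKO GCB, without overlap. The neutrophil list was below 0 for 7 of 7 genes tested, with 0 called with or without the block, and summed to 8.29, 13.9 and 0.602 CPM in WT GCB and 0.827, 4.55 and 1.93 in cKO GCB. The part of any of these in the members' shift was not tested.

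In follicular B cells the sign of the genotype difference changed when WT FoB 1 was left out. Again 0 of 58 members were called by edgeR, with 0 at an unadjusted p under 0.05, and 0 by DESeq2. Over all genes edgeR called 0% in either direction, with and without the block, and DESeq2 called 0.00730% higher and 0.0219% lower. Log2 differences were below 0 for 57 of 58, against 47.3% of all genes, with a median of -0.25 and a range from -0.50 to 0.01. Without WT FoB 1, 56 of 58 were above 0, with a median of 0.26 and a range from -0.03 to 0.66. That fit kept cKO FoB 1, which has the same number and was the highest cKO FoB library (median 6.78% of WT GCB). Without both WT FoB 1 and cKO GCB 1 in the blocked fit, 48 were above 0, with a median of 0.15. Within numbers the medians were -0.59, -0.13 and 0.14, with 57, 45 and 9 of 58 below 0. Numbers 2 and 3, which include neither WT FoB 1 nor cKO FoB 1, thus differed in sign. Only 4 members were below 0 within all 3 numbers, beside 11.0% of all genes. The authors' deposited table gave 57 of 58 below 0 in FoB, with a median of -0.24 and false discovery rates of 1.00.

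Racgap1 had the smallest p in FoB, at 41.8, 25.1 and 22.6 CPM in WT and 27.8, 19.5 and 23.0 in cKO. WT FoB 1 was its only WT library above all cKO libraries, and the log2 difference was -0.35 ± 0.22 (interval -0.83 to 0.13, adjusted p = 1.00, edgeR) with it and -0.03 without it. Ncaph stood at 32.9, 17.2 and 14.8 CPM in WT and 20.0, 13.5 and 15.4 in cKO. Its difference of -0.41 ± 0.26 became 0.02 without WT FoB 1. Cdca5 stood at 14.9, 6.92 and 7.36 CPM in WT and 9.33, 5.26 and 6.87 in cKO. The groups overlapped, and its difference of -0.44 ± 0.29 became 0.0040 without WT FoB 1. The fits without WT FoB 1 kept cKO FoB 1. Within numbers 1, 2 and 3 the log2 CPM difference of Cdca5 was -0.67, -0.39 and -0.10, below 0 in each. It was -0.59, -0.36 and 0.02 for Racgap1 and -0.72, -0.34 and 0.05 for Ncaph. No member was lower or higher in cKO FoB without overlap, beside 1.15% and 1.05% of all genes.

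The genotype differences in the 2 cell types were also compared directly, by the interaction of cell type and genotype. Here 0 of 58 members were called by edgeR, with and without the block, and by DESeq2, 0 had an unadjusted p under 0.05 in these 3 fits. Over all genes 0.00730% were called higher by edgeR, 0.263% with the block and 0.146% by DESeq2, and 0% lower. The members' median of the GCB difference minus the FoB difference was 0.12, with 47 above 0. It became -0.43 with 58 below 0 once WT FoB 1 was left out and cKO FoB 1 was kept. Cdc25b had the smallest p at -0.23 ± 0.19 (interval -0.63 to 0.18, adjusted p = 1.00, edgeR). Cdca5 came next at 0.27 ± 0.40, which became -0.18 without WT FoB 1. Cenpe followed at 0.39 ± 0.60, which became -0.27 without WT FoB 1.

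The members did not all vary together from library to library. In GCB, library 3 was below the mean of libraries 1 and 2 in both genotypes for 27 members, above it in both for 14, and of mixed sign for 17. The deviation of library 3 was largest downwards for Ncapg, at -1.03 on the log2 scale in WT GCB and -0.92 in cKO GCB. Bub1 (-0.79 and -0.73) and Smc4 (-0.77 and -0.69) followed in WT. It was upwards for Kif18b (0.39 and 0.54), a kinesin that limits microtubule length, for Foxm1 (0.36 and 0.51) and for Plk1 (0.32 and 0.72). Across the 58 members the deviations in WT GCB and cKO GCB had a Pearson r of 0.953, which describes genes that share these 6 libraries. Ncapg stood at 22.5, 7.22 and 4.84 CPM in WT FoB, 13.8, 8.03 and 5.82 in cKO FoB, 292, 299 and 144 in WT GCB and 229, 276 and 132 in cKO GCB, so that library 3 held about as little in cKO as in WT. Its genotype difference in GCB, -0.21 ± 0.51, was smaller than its spread between libraries of 1 genotype. Much of that spread was shared by library number. Within numbers 1, 2 and 3 the log2 CPM difference of cKO and WT was -0.35, -0.12 and -0.12 for Ncapg.

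**Figure D5:**
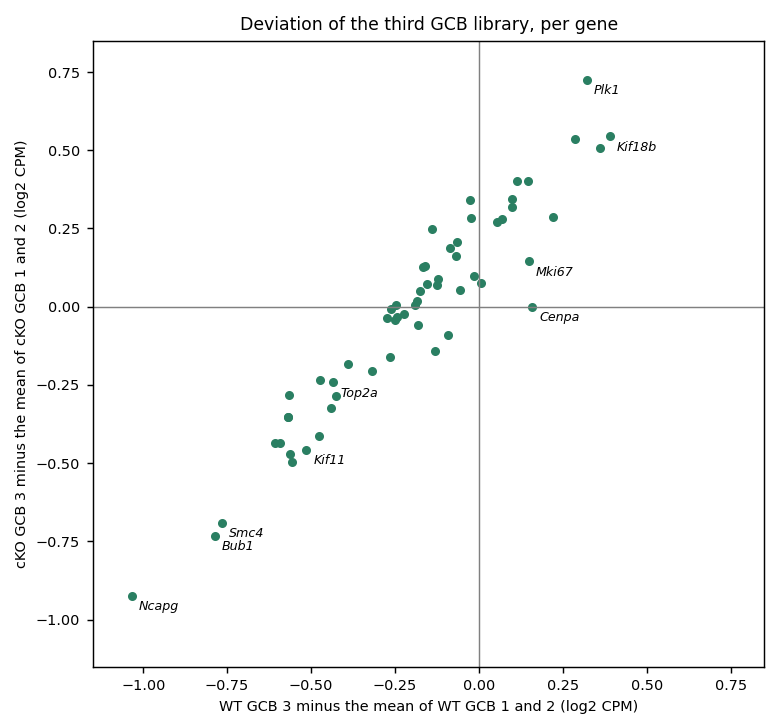
Log2 deviation of library 3 from the mean of libraries 1 and 2 in WT GCB (horizontal) and cKO GCB (vertical), 1 point per member. The points lie along a line from Ncapg (-1.03 and -0.92) to Plk1 (0.32 and 0.72).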

How the data were processed

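The 12 libraries, 3 per group, came from polyadenylated RNA. Per the labels, Nextera reagents and a HiSeq2500 were used. The authors deposited raw counts per Ensembl gene for 25640 genes and a shorter table of 10518 genes with log2 fold changes, p-values and false discovery rates. The submitters' processing notes name Bowtie2, edgeR, MACS2 and the build mm10. Not given in the sources used here are versions, the read counter, annotation and strand use, so genes that overlap others or host noncoding RNAs hold an uncertain share of reads. The 4 ATAC-seq samples were not analysed here.

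The main test was that of edgeR 4.0.16, run in R 4.3.3: genes with low counts were removed (filterByExpr, minimum count 10), which kept 13708 genes and left out 11932, TMM factors were applied, and the quasi-likelihood F test was run on group means of all 12 libraries (8 residual degrees of freedom, biological coefficient of variation 0.266), with Benjamini-Hochberg adjustment over all genes and a threshold of 0.05. Intervals are 95% intervals from this fit. DESeq2 1.42.0 was an alternative, and limma 3.58.1 was loaded with edgeR. Levels are not compared between genes, since exon lengths were not used here. Code was tested on simulated data. Library totals of 23349512 to 26967943 counts limit the precision of low FoB values most.

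Same-numbered libraries correlated in their deviations from group means (r 0.478 to 0.753 over 18 pairs). On that ground the numbers were taken to pair libraries, and a fit with the number as a block was run. Differently numbered libraries gave r of -0.654 to 0.0952 over 36 pairs. Centering 3 libraries on their mean pulls those values below 0, so they add no separate evidence of pairing. The labels give only the number. The members, the gene lists and the rule for naming genes were chosen with earlier results of these data known. Every member may be named; library values are given for 14 members chosen by role, for the 3 largest and 3 smallest cell type differences, and for the 3 smallest p of each genotype comparison. Ncapg and Kif23 were chosen for library values after their values were seen. Other alternatives were other scalings and filters, only the 6 libraries compared, and leaving out libraries. Promoter windows, with gene names and coordinates, came from RefSeq tables of GRCm38.p6.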

Additional observations from a re-analysis of the deposited data

How the results depend on the processing

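All 58 members were called higher in GCB in both genotypes, and 0 were called for genotype or for the difference of the genotype effects, under each of the 18 alternatives run for the first 4 comparisons and the 23 run for the last. The replicate block, in which library number is a term because the numbers were taken to pair the libraries, changed no call of a member. The members' blocked medians were 4.12 and 4.19 for GCB over FoB in WT and cKO. They were -0.16 and -0.22 for genotype in GCB and FoB, and 0.10 for the difference. The block did change calls over all genes: 293 in place of 14 for genotype in GCB and 36 in place of 1 for the difference. For genotype in GCB, DESeq2 called 130 genes, no filter 62, no TMM factor 23, the fit without both doubted libraries 7 (124 with the block), the 6 libraries alone 5 and leaving out 1 library 5 to 58. For genotype in FoB the count of 0 became 5 without a filter and 4 with DESeq2. For the difference it became 20 with DESeq2 and 2 without a filter. Leaving out a number in all 4 groups, chosen after seeing the data, gave 1 in GCB and 0 for the difference.

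The median for GCB over FoB in WT was 4.70 without WT FoB 1 and cKO GCB 1, 4.58 with the block in addition and 4.67 without number 1 in all groups. Leaving out 1 library at a time gave 3.79 to 4.69. For genotype in GCB the median was -0.023 with the block and without both libraries, and -0.23 to -0.10 leaving out 1 library. In FoB leaving out 1 library gave -0.54 (without cKO FoB 1) to 0.26 (without WT FoB 1), and the median was 0.27 without both libraries. For the difference it was -0.39 without both, and -0.43 to 0.37 leaving out 1 library. Single genes changed sign. Ncaph in FoB was 0.024 without WT FoB 1 and 0.025 without both, and Cdca5 was 0.0040 and 0.0048. Leaving out 1 library gave -0.62 to 0.024 for Ncaph and -0.69 to 0.0040 for Cdca5. In the difference Cdca5 was -0.18 without WT FoB 1, -0.12 without both and -0.024 with the block in addition, and Cenpe was -0.27 and -0.31. Leaving out 1 library gave -0.18 to 0.50 for Cdca5 and -0.27 to 0.78 for Cenpe. What sets WT FoB 1 and cKO GCB 1 apart was not tested.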

Other observations

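Of the 55 other mitotic genes outside the 58 members, 43 were below 0 and 12 above 0 in cKO against WT GCB. Psrc1, a spindle-associated protein, had the largest difference above 0 and was singled out after its values were seen. It stood at 18.4, 12.7 and 18.9 CPM in WT GCB and 33.4, 22.5 and 36.4 in cKO GCB, without overlap, and at 4.10, 1.77 and 1.94 in WT FoB and 5.06, 1.85 and 4.34 in cKO FoB. Its log2 difference in GCB was 0.88 ± 0.38, with an adjusted p of 0.900 (edgeR), so it did not pass that test. With the replicate block it was 0.88 ± 0.18 with an adjusted p of 0.0217, and no other gene of the 55 was called by that fit in this comparison. Over all genes that fit called 1.93% higher and 0.212% lower, and 5.42% were higher in cKO GCB without overlap. A single call among 55 genes is thus near the share over all genes.

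The genes of DNA replication stayed close between genotypes in GCB. The 40 S phase genes had a median log2 difference of -0.03, with 27 below 0 and 0 called, and their summed level was 11203, 12587 and 11322 CPM in WT GCB and 9965, 11841 and 11916 in cKO GCB. Among the 12 cohesin genes all were below 0, with a median of -0.17, and 0 were called.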
